A study of Mus musculus with 3264 samples.

Results

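The cells described here belonged to the hematopoietic progenitor (HPC) line of a mixture of 3 mouse cell lines, and were brought into single wells in different ways. On the target plates, ALPS, an automated live imaging and cell picking system, picked cells chosen by their image as leukemia, T or HPC cells. On the random plates, ALPS picked cells from the same kind of mixture without choosing a type. On the FACS plates, the cells were deposited by fluorescence-activated cell sorting. HPC wells were found from their RNA and not from their label: a well was kept when Plac8, Ifitm1, Mef2c, Cd34 and Tyrobp made up at least 70% of the counts of 15 marker genes, the others being Cd7, Cacna2d2, Capn3, Aass and S1pr4 for the leukemia line and Bcl11b, Ccdc91, Skap1, Sp9 and Rora for the T line. That left 70 wells on 4 target plates (17, 21, 17 and 15) and 52 wells on 2 FACS plates (24 and 28), which is 24.5% of the target and FACS wells among the 1836 wells listed in the cell line table. On 4 random plates a further 32, 31, 27 and 21 wells passed the same rule and are given beside them. The labels give no strain, culture, passage or age for the lines, no sorting gate and no time between picking and lysis, and no group was treated with a compound. Since the labels name no separate cultures, each group counts as 1 sample: no test was made, and plates show only how far wells handled together differed from each other. No plate held both picked and sorted cells, so the isolation method and the plate cannot be told apart.

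Hematopoietic progenitors are immature blood cells that carry CD34 and divide to give rise to myeloid and lymphoid cells. Immediate early genes such as Fos, Jun, Atf3 and Klf6 are transcribed within minutes of a stimulus, such as a growth factor, a cytokine or a stress, without new protein synthesis. Their transcripts are short-lived, and several of their products, such as Dusp1 and Rgs2, damp the signal that induced them. The integrated stress response is a separate route: it acts through Atf4 on genes of amino acid supply such as Asns and on Trib3 when translation is held back. Replication-dependent histone messages and spliceosomal RNAs end without a poly(A) tail, and the primer used here carried a run of 14 T bases meant for such tails.

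The marker genes fitted the name HPC. All 5 HPC markers were measured in both groups, and their summed level was 3140 to 3543 CPM (counts scaled to a plate total of 1000000 in its HPC wells) on the target plates, 2591 to 2988 CPM on the random plates and 3892 and 3534 CPM on the FACS plates. These genes chose the wells, so their levels are a description. Cd34 had 506.3, 575.7, 607.1 and 487.2 CPM on the target plates, 439.7, 397.6, 453.7 and 332.7 CPM on the random plates and 520.5 and 578.2 CPM on the FACS plates, and its groups overlapped. The 5 leukemia markers together reached 3.78 to 16.9 CPM on target and 31.7 and 10.7 CPM on FACS plates, and the 5 T markers at most 1.82 and 1.13 CPM. The HPC share of the marker counts was at least 92.9% in the target wells kept and 90% in the FACS wells kept, while the highest share left outside was 36.5% and 16.7%, so that a limit of 50% or 90% would have kept the same wells in both groups. Outside the rule, Flt3, a receptor of early progenitors, had 118.5, 140.8, 129.2 and 134.3 CPM on the target plates, against 173.1 and 128.5 CPM on the FACS plates, and Spi1, a myeloid transcription factor, 111.8, 108.4, 92.8 and 81.4 CPM on the target plates, against 97.3 and 92.8 CPM on the FACS plates. B cell, megakaryocyte and mast cell lists had no member above the level filter described below. Of 13 neutrophil granule genes, 10 were at 0 counts in both groups, and only Mpo passed. Of 14 monocyte and macrophage genes, which include the marker Tyrobp, 11 passed and summed to 1171.7 to 1547 CPM on target, 1889 to 2108 CPM on random and 2001 and 1652 CPM on FACS plates.

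Labels and RNA parted on the FACS plates. All 70 target wells were labelled as hematopoietic progenitors, 70 of 73 wells with that label. Of the 52 FACS wells, 13 were so labelled, 20 were labelled as T cells and 19 as leukemia cells, while 45 listed FACS wells carried the HPC label. The 13 FACS wells that have both the label and the markers are used below as an alternative, chosen after the values were seen. Depth also differed: the median well held 36530, 33421, 32266 and 36127 counts on the target plates, 26559 to 31475 on the random plates, and 17052 and 31641 on the FACS plates. The 45S ribosomal RNA precursor Rn45s took 12.4% of counts in target, 9.95% in random and 6.05% in FACS wells, and the whole list of nuclear and structural RNAs 16.8%, 13.3% and 7.23%.

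The promoters of 4 genes described below, of which Asns was not called, are shown because they carry elements known to read out the pathways above. These are the cAMP response element (CRE, searched as TNACGTCA) and the C/EBP-ATF response element through which Atf4 acts (CARE, searched as TGATGNAA), both on either strand. Each runs from 250 bases before to 50 bases after a transcription start in the direction of the gene, from RefSeq on GRCm38.p6, with the matches in capitals. For Atf3 and Dusp1 the window lies inside a longer annotated span of the gene, chr1:191170296-191218039 and chr17:26505590-26562128, and promoters farther upstream were not searched. Atf3 (chr1:191183284-191183583, minus strand) holds both elements, Dusp1 (chr17:26508423-26508722, minus strand) a CRE, and Trib3 (chr2:152344011-152344310, minus strand) and Asns (chr6:7693160-7693459, minus strand) a CARE.
Atf3: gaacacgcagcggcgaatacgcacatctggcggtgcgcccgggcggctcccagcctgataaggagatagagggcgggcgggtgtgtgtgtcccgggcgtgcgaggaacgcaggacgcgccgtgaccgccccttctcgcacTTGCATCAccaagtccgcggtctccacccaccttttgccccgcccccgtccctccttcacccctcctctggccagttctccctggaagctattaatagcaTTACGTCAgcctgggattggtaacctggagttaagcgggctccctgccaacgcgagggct
Dusp1: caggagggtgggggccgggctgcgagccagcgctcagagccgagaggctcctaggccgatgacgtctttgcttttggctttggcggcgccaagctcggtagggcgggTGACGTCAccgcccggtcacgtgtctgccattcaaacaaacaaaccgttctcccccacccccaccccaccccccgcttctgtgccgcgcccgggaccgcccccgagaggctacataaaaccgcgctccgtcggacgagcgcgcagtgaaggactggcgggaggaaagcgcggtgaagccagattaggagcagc
Trib3: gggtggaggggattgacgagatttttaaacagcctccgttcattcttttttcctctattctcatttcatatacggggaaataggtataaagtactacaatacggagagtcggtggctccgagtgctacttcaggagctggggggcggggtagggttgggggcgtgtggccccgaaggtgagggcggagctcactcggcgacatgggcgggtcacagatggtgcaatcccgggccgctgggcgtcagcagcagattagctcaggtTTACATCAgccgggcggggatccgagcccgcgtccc
Asns: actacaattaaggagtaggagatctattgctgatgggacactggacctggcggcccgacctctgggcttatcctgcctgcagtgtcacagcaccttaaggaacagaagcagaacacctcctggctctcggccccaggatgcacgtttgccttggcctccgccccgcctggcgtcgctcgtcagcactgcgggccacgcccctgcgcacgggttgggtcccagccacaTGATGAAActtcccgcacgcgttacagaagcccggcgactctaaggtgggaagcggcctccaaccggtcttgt
Of 27025 mouse promoters of this length, 3.08% hold the CRE letters and 4.06% the CARE letters. In the same window, none of Fosb, Jun, Klf6, Rgs2 and Klf2 held either element, an AP-1 site (TGANTCA, 7.93% of promoters) or a CArG box (1.57%), which says only that these letters are not in this window. Lrrc17 also holds the CARE letters, while Aldh18a1, Cebpb and Cebpg hold none in this window.

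The RNA with the largest difference, Rnu11, is the U11 RNA of the minor spliceosome, and it is shown with Rnu12, its U12 partner, from the GENCODE M21 transcripts (GRCm38). Capitals mark the longest run of A, which is 5 bases in Rnu11 (chr4:132270080-132270213, minus strand) and 4 bases in Rnu12, against 14 T bases in the primer.
Rnu11: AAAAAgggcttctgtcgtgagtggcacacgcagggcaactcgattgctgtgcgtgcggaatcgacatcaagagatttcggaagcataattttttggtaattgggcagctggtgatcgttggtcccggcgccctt
Rnu12: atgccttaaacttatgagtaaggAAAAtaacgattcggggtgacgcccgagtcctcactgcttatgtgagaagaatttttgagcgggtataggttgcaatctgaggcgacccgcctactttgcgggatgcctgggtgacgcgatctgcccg
Neither transcript holds a run of A as long as the primer's run of T.

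Counts were summed over the HPC wells of each plate and scaled to CPM, and a gene's difference is the mean log2(CPM + 1) of the target plates minus that of the FACS plates, with the lowest and highest of the 8 plate pairs in parentheses. A gene passed the level filter with a mean of 10 CPM and 30 counts in 1 group, and was called when it differed at least 2-fold in that mean and lay in the same direction in every plate pair. Of 6975 genes, 2.32% were called higher on target plates and 2.01% lower, together 4.33%. The median difference over all genes was -0.07 and the SD between genes 0.54. With the structural RNAs left out of the totals, the median of all genes moved up by 0.15, and 74.6% of the calls were higher in place of 53.6%, so that calls near the 2-fold limit rest on the scaling. With size factors in place of totals, 68.6% of the calls were higher. Random against FACS plates, which share the FACS plates and are no second experiment, gave 2.41% higher and 0.387% lower of 8018 genes. Between target and random plates, 0.0876% of 7987 genes were called higher and 2.03% lower. With each well thinned to 10000 counts, fewer genes passed the filter and 24.5% of the genes called in full data were called. Named below are the 15 largest called differences in each direction among genes of at least 50 CPM, and members of gene lists.

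Immediate early genes were among the largest differences. Of 27 immediate early and AP-1 genes, 17 passed the filter; 6 were called higher on target plates (Fosb, Jun, Atf3, Klf2, Klf6 and Dusp1) and Ier3 was called lower, with a median of 0.88. Atf3, a stress-induced bZIP repressor (chr1:191170296-191218039, minus strand), had 131.2, 118.2, 127.3 and 187.3 CPM on the target plates, 147.2, 85.998, 54.99 and 136.7 CPM on the random plates and 18.1 and 2.38 CPM on the FACS plates. Every picked plate lay above both FACS plates, and the difference between target and FACS was 4.12 (2.64 to 5.80). Pooled, it came to 138.9 CPM (124.3 to 154.7) over the target plates and 7.80 CPM (3.74 to 14.3) over the FACS plates, with 95% Poisson intervals that cover counting error only. Fosb, a Fos family subunit of AP-1 (chr7:19302696-19310051, minus strand), had 33.9, 103.5, 58.2 and 41.6 CPM on the target plates, 262.3, 135.3, 79.99 and 80.7 CPM on the random plates and 4.53 and 3.57 CPM on the FACS plates. Its difference was 3.45 (2.66 to 4.51), and the random plates were the highest.

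Jun, the partner of Fos in AP-1, had 79.6, 61.9, 140.1 and 130.6 CPM on the target plates, 147.2, 126.1, 143.7 and 148.3 CPM on the random plates and 33.9 and 21.4 CPM on the FACS plates, a difference of 1.81 (0.85 to 2.65) with no overlap between picked and sorted plates. Klf6, a zinc finger factor of the Krüppel-like family, stood at 272.6, 380.8, 245.6 and 365.2 CPM on the target plates, 446.1, 256.1, 219.97 and 242.1 CPM on the random plates and 49.8 and 60.7 CPM on the FACS plates. Its target plates were 5.72-fold above the FACS plates in mean CPM, and the difference of logs was 2.48 (1.999 to 2.91). Klf2, a related factor known for quiescence in lymphocytes, had 27.1, 7.04, 9.10 and 11.4 CPM on the target plates, against 4.53 and 5.95 CPM on the FACS plates. Its difference was 0.69 to 1.29 with 1 target plate left out, where it fell under the level filter, and 0.90 without FACS plate 1, and it was called in none of these. Ier3, an early gene that modulates cell survival, went the other way, with 35.6, 14.1, 20.01 and 15.1 CPM on the target plates, against 47.5 and 47.6 CPM on the FACS plates, a difference of -1.22 (-1.69 to -0.41).

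Not every early gene was called. Fos, the partner of Jun, had 59.3, 88.7, 29.1 and 15.1 CPM on the target plates, 364.9, 170.1, 98.7 and 92.2 CPM on the random plates and 27.2 and 5.95 CPM on the FACS plates: 2 target plates lay near or inside the FACS range, while all random plates lay above it. Its target difference was 1.52 (-0.80 to 3.69), and its random difference 3.47 was called. Egr1, a zinc finger early gene, had 6.77, 5.63, 1.82 and 3.78 CPM on the target plates, against 6.79 and 0 CPM on the FACS plates and did not pass the filter. Ier2, Junb and Jund overlapped between target and FACS, with differences of -0.16, -0.39 and 0.13. Between random and FACS plates 12 of 19 measured list members were called higher and none lower, with a median of 2.06, against 6 of 17 between target and FACS plates. The difference between the picking modes was not tested.

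Feedback regulators of signalling split. Rgs2, which speeds the shut-off of Gq signalling (chr1:143999338-144004161, minus strand), had 207.4, 256.2, 406.6 and 298.01 CPM on the target plates, 432.8, 236.3, 268.1 and 225.7 CPM on the random plates and 52.1 and 47.6 CPM on the FACS plates, a difference of 2.48 (1.97 to 3.07). All 8 picked plates lay far above both FACS plates, which were close to each other. Dusp1, a phosphatase of p38 and JNK, had 10.2, 21.1, 20.01 and 37.8 CPM on the target plates, 51.4, 47.3, 39.99 and 29.7 CPM on the random plates and 6.79 and 2.38 CPM on the FACS plates, a difference of 2.05 (0.52 to 3.52) that rests on 5 counts from FACS wells. After thinning it fell under the level filter. Lower on target plates were Dusp6, the ERK phosphatase, at -1.14, Pim3, a kinase induced by cytokines, at -1.08, and Cish, the STAT5 feedback inhibitor, with 50.8, 11.3, 8.19 and 20.8 CPM on the target plates, 40.02, 44.4, 64.99 and 24.7 CPM on the random plates and 61.1 and 69.01 CPM on the FACS plates. Only target plate 1 came near the FACS level of Cish, and the difference was -1.80 (-2.93 to -0.26). Of the 25 listed feedback genes 15 passed, 2 were called higher and 3 lower, with a median of -0.25. With the structural RNAs out of the totals, Dusp6 and Pim3 were no longer called. Both calls were also lost without target plate 3, at -0.88 and -0.998. Between random and FACS plates the 2 genes were at 0.045 and -0.50 and were not called. With the 13 FACS wells that also carry the HPC label, Pim3 was at -0.14.

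**Figure D1:**
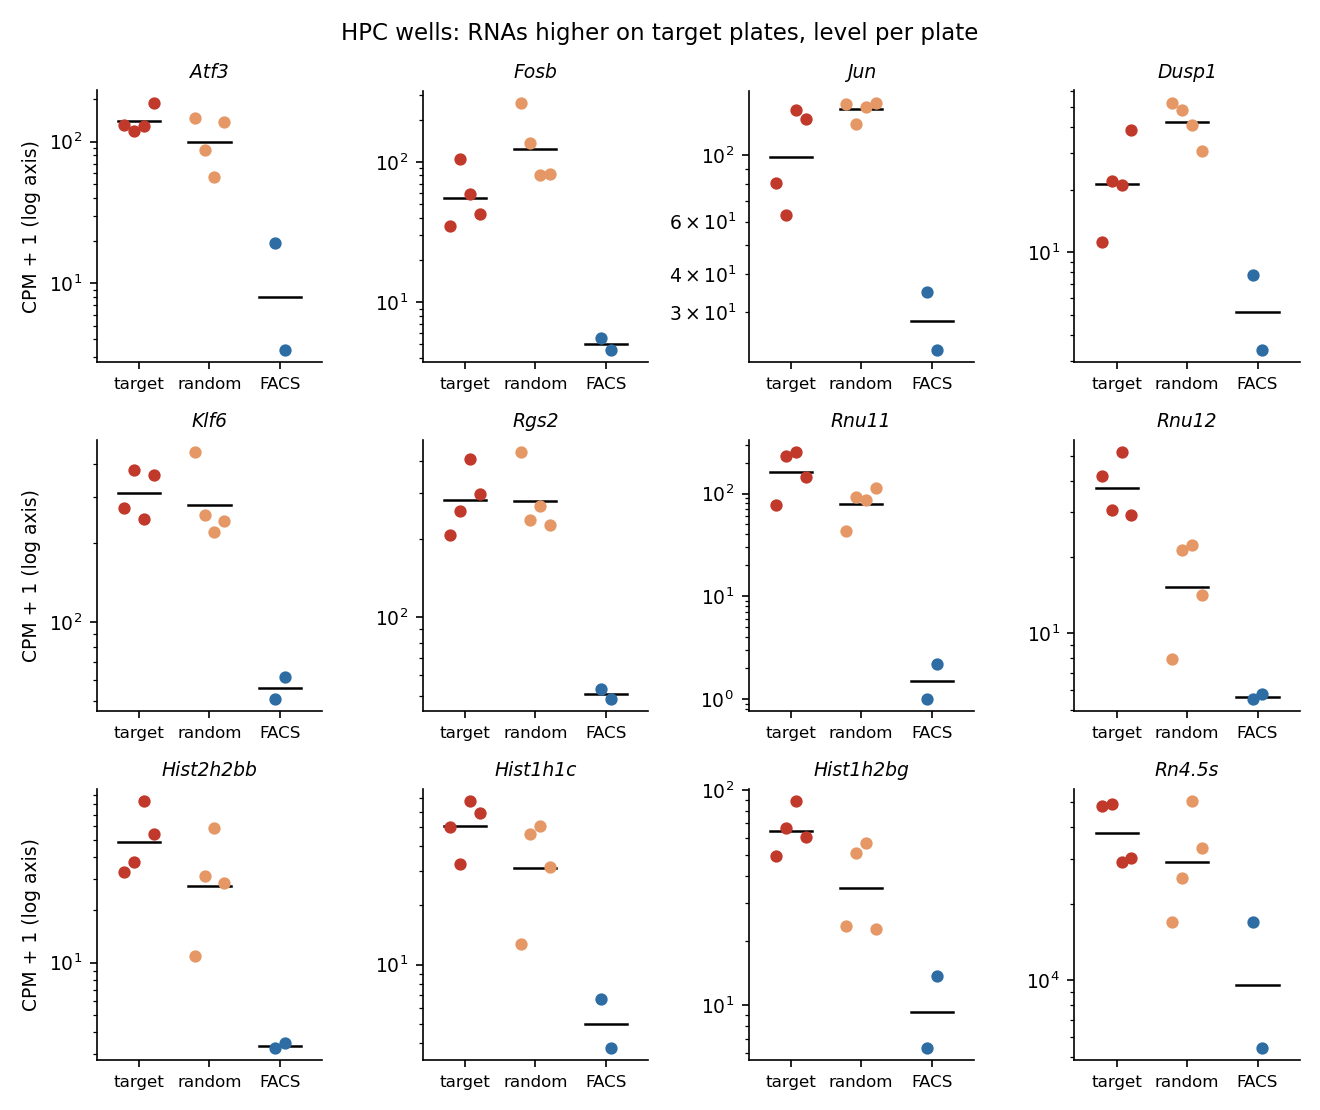
Level of 12 RNAs called higher on target plates, as CPM + 1 on a log axis whose range differs between panels, in HPC wells of 4 target, 4 random and 2 FACS plates; each point is a plate and each bar the mean of the logs. All target and random points lie above both FACS points in 11 panels, while for Rn4.5s random plate 1, at 16984 CPM, lies level with FACS plate 1, at 16973 CPM.

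The NF-kB list showed both directions as well. Called higher were Nfkbiz, an inducible nuclear IkB protein, with 23.7, 23.9, 38.2 and 34.1 CPM on the target plates, against 4.53 and 5.95 CPM on the FACS plates, Rel, the c-Rel subunit, with 16.9, 14.1, 20.01 and 13.2 CPM on the target plates, against 6.79 and 3.57 CPM on the FACS plates, and the chemokine Ccl3, with 407.2, 421.6, 517.5 and 662.2 CPM on the target plates, 1220.3, 683.6, 730.1 and 679.5 CPM on the random plates and 308.9 and 144.6 CPM on the FACS plates. Ccl3 was highest on random plate 1, and its target difference was 1.22 (0.40 to 2.19). Called lower were the cytokine Tnf, with 5.08, 11.3, 16.4 and 13.2 CPM on the target plates, 20.8, 16.4, 30.6 and 23.1 CPM on the random plates and 58.8 and 55.9 CPM on the FACS plates, and Nfkb2, the p100 subunit, at -1.64. No target plate reached a FACS plate for Tnf, whose difference was -2.32 (-3.30 to -1.71). Without FACS plate 2 that difference was -2.36 with too few counts for the filter, while that of Ccl3 was 0.67 and no longer called. Nfkb2 fell under the filter with either FACS plate left out, at -1.36 without FACS plate 1 and -1.92 without FACS plate 2. Rel fell under it without target plate 1, 2 or 3, at 1.47, 1.55 and 1.39. Between random and FACS plates Rel was at 0.94 and not called. After thinning, 0 of the 5 calls remained: 4 genes fell under the filter and 1 passed it without a call. Nfkbia, the classical inhibitor, overlapped with 37.3, 46.5, 27.3 and 43.5 CPM on the target plates, against 122.2 and 35.7 CPM on the FACS plates. Of 23 listed genes 13 passed, 3 were called higher and 2 lower, with a median of -0.32. Over the same 13 genes the median was -0.01 without FACS plate 1 and -0.19 without FACS plate 2.

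The spread of 6 called genes over single wells was also described. Each well was thinned to 10000 counts, which left out 1 FACS well. The 6 genes (Atf3, Fosb, Jun, Klf6, Rgs2 and Dusp1) were called higher on target plates and chosen with their values known. The direction of target against FACS wells therefore follows from the choice, and Fos, Ier3 and Klf2 are not among the 6. As each group is 1 sample, the intervals cover the counting of wells only. At least 2 of the 6 had a count in 62 of 70 target wells (88.6%, exact 95% interval 78.7 to 94.9), 94 random wells (84.7%, 76.6 to 90.8) and 10 of 51 FACS wells (19.6%, 9.82 to 33.1). None of the 6 was found in 4.29% of target, 2.7% of random and 27.5% of FACS wells. At least 3 were found in 58.6% of target, 72.1% of random and 3.92% of FACS wells. By plate, the share with at least 2 was 76.5 to 95.2% on target, 66.7 to 100% on random, and 26.1% and 14.3% on FACS plates, so that the plates of the picked cells all lay above those of the sorted cells.

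Among single genes, Klf6 had a count in 84.3% of target wells (73.6 to 91.9), 75.7% of random wells (66.6 to 83.3) and 35.3% of FACS wells (22.4 to 49.9). Atf3 was found in 48.6% of target, 36% of random and 9.80% of FACS wells, in 1 random well of the T line (0.84%), and in no target or FACS well of the T line (120 and 64 wells) or of the leukemia line, which at 3 counts of the wells allows shares of up to 2.5% of target and 4.69% of FACS wells for T, and 2.34% and 4.76% for leukemia (upper ends of the exact 95% intervals 3.03%, 5.6%, 2.84% and 5.69%). Such a limit covers wells with a count at this depth, not cells that express the gene. Wells of the T and leukemia lines had median depths of 37148 and 31868 counts on target plates, near the 33906 counts of HPC wells. Rgs2 was found in 74.3% of target, 67.6% of random and 21.6% of FACS wells, and Fosb in 34.3% of target, 46.8% of random and 3.92% of FACS wells. Fosb was also counted in 18 of 120 target and 0 of 64 FACS wells of the T line. Dusp1 was found in 13 of 70 thinned target wells and in 0 of 51 thinned FACS wells, which at 3 counts allows a share of up to 5.88% (exact 95% interval up to 6.98%). Without thinning it had a count in 41.4% of target and 9.62% of FACS wells. Without thinning, when deeper wells count more, the share with at least 2 early genes was 95.7% in target, 99.1% in random and 44.2% in FACS wells.

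**Figure D2:**
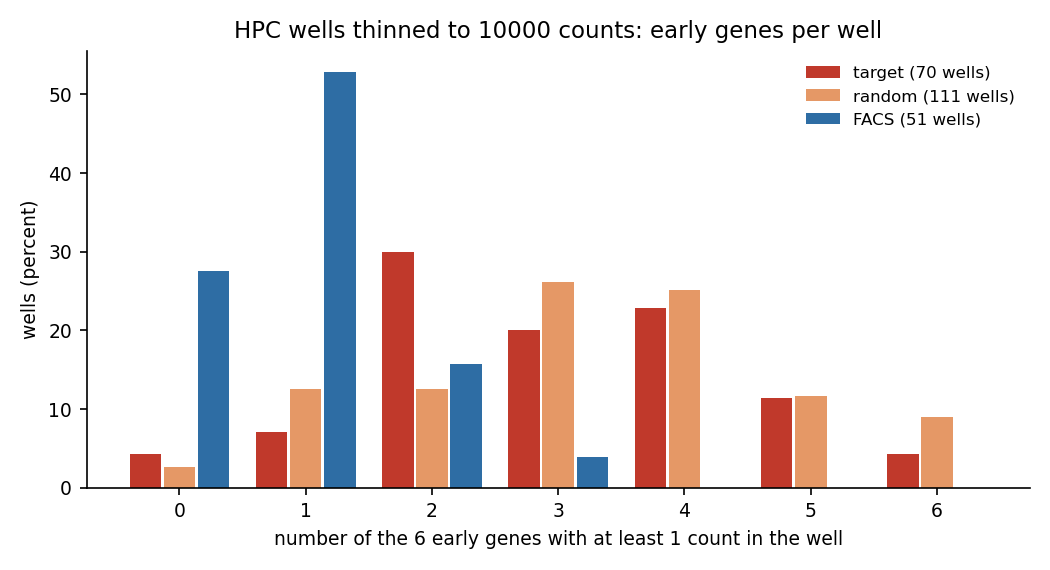
Share of HPC wells, in percent, that hold 0 to 6 of the early genes Atf3, Fosb, Jun, Klf6, Rgs2 and Dusp1 after thinning to 10000 counts, for target, random and FACS wells. FACS wells peak at 1 gene (52.9%) and none holds more than 3, while 30% of target wells hold 2 and 22.9% hold 4.

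Histone messages were the most numerous class among the genes called higher. Histones package new DNA, and their clustered genes are transcribed in S phase. Of 69 listed genes with cluster symbols (Hist1 to Hist4, a class put together after values were seen), 60 passed the filter, 46 were called higher on target plates and none lower, with a median of 1.65, and these 46 were 28.4% of all genes called higher. Between random and FACS plates 32 of 60 were called higher, with a median of 1.17. The linker histone Hist1h1c had 48.8, 31.4, 66.99 and 57.7 CPM on the target plates, 11.7, 44.9, 49.8 and 30.5 CPM on the random plates and 5.66 and 2.77 CPM on the FACS plates, a difference of 3.33 (2.28 to 4.17). Hist2h2bb, a core H2B gene that overlaps exons of the predicted genes Gm42743 and, on the other strand, Gm20628, had 31.9, 36.7, 82.8 and 52.98 CPM on the target plates, 9.88, 30.1, 57.7 and 27.3 CPM on the random plates and 2.26 and 2.46 CPM on the FACS plates. Picked plates did not overlap the sorted ones for either gene.

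The other named histones had the same direction. Hist1h2bg had 48.1, 65.8, 87.9 and 59.3 CPM on the target plates, against 5.36 and 12.7 CPM on the FACS plates, Hist1h1d 50.8, 49.01, 81.5 and 33.7 CPM on the target plates, against 7.92 and 10.5 CPM on the FACS plates, and Hist1h1a 32.2, 45.04, 90.95 and 62.4 CPM on the target plates, against 22.6 and 7.14 CPM on the FACS plates, where FACS plate 1 lay near target plate 1. Hist1h2bq and Hist1h2br hold the same values in every well, 49.5, 52.6, 85.1 and 70.4 CPM on the target plates, against 10.5 and 16.8 CPM on the FACS plates, and their reads cannot be told apart. Near-identical histone copies could share reads in general, so single members are uncertain. The most abundant histone genes were not called: Hist1h2ao averaged 819.6 CPM on target and 919.7 CPM on FACS plates, and Hist1h2ap 772.6 and 793.3 CPM. Summed over the class, histones reached 3678 to 5130 CPM on target, 3060 to 4243 CPM on random, and 2388 and 2989 CPM on FACS plates.

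The cell cycle lists gave no calls, but at 4.33% of all genes called, lists of this size can hold none. None of 20 S phase genes was called, with a median of 0.12 and sums of 2410 to 3024 CPM on target plates against 1860 and 3260 CPM on FACS plates. Their median was -0.26 without FACS plate 1 and 0.62 without FACS plate 2. None of 24 G2 and M phase genes was called either, with a median of -0.16. That median was -0.578 without FACS plate 1 and 0.305 without FACS plate 2. FACS plate 2 lay above FACS plate 1 for the histones, by a median of 1.0, and 34 of the 60 were called without FACS plate 1 and 53 without FACS plate 2. After thinning, 10 of the 46 histone calls remained: 32 genes fell under the level filter and 4 passed it without a call, while the median over the same 60 genes was 1.99. The part of S phase share in the histone difference was not tested.

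Rnu11 and Rnu12 of the minor spliceosome were called higher on target plates. Rnu11 had 76.2, 230.8, 253.8 and 143.8 CPM on the target plates, 42.5, 91.8, 85.8 and 112.01 CPM on the random plates and 0 and 1.19 CPM on the FACS plates. All picked plates held it, and FACS plates held a single count in 52 wells; pooled, 178.4 CPM on target stood against 0.780 CPM on FACS plates (0.0197 to 4.34, Poisson 95%). After thinning, Rnu11 was found in 48.6% of target, 39.6% of random and 0% of FACS wells, where 0 of 51 FACS wells at 3 counts allows a share of up to 5.88% (exact 95% interval up to 6.98%). Without thinning the shares were 70% of target and 1.92% of FACS wells. Rnu12 had 40.6, 29.6, 50.9 and 28.4 CPM on the target plates, 6.92, 20.3, 21.2 and 13.2 CPM on the random plates and 4.53 and 4.76 CPM on the FACS plates, a difference of 2.73 (2.35 to 3.23). Rmrp, the RNA of the RNase MRP that cuts ribosomal precursor, had 16.9, 21.1, 20.01 and 9.46 CPM on the target plates, against 2.26 and 2.38 CPM on the FACS plates.

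Longer and repeat-derived RNAs followed with smaller differences. Rn4.5s, the rodent 4.5S RNA made by RNA polymerase III, had 48505, 49402, 29057 and 30282 CPM on the target plates, 16984, 25153, 50740 and 33115 CPM on the random plates and 16973 and 5437 CPM on the FACS plates, a difference of 1.99 (0.78 to 3.18). Malat1, the nuclear-retained long RNA, had 1516.6, 1501.9, 2175 and 1686 CPM on the target plates, against 1278.7 and 512.8 CPM on the FACS plates, and Neat1, the scaffold of paraspeckles, 193.03, 313.9, 522.1 and 310.3 CPM on the target plates, against 190.1 and 103.5 CPM on the FACS plates; for both, FACS plate 1 came near the lowest target plate, and both calls were lost without FACS plate 2, at 0.41 and 0.73, or target plate 3, at 0.95 and 0.92. Vaultrc5, a vault RNA, had 172.7, 140.8, 90.95 and 100.3 CPM on the target plates, against 9.05 and 73.8 CPM on the FACS plates, and its difference of 0.72 without FACS plate 1 was not called. Rn45s averaged 124631 CPM on target and 60808 CPM on FACS plates, a difference of 1.02 (0.71 to 1.29) at the limit of the call, which was lost without FACS plate 2 or target plate 3 or 4. Rnf225, named for a RING finger, had 220.5, 192.8, 150.1 and 109.7 CPM on the target plates, against 27.2 and 14.3 CPM on the FACS plates, but its exons hold the predicted RNA gene Gm26325, so the source of these counts is uncertain.

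Of the 13 RNAs on the nuclear and structural list that the table holds, 11 passed, 7 were called higher and none lower, with a median of 1.16 and 4 of 11 called higher between random and FACS plates. Among small noncoding RNAs found by symbol, a class chosen after values were seen, 18 passed and 9 were called higher, 7 of them also without FACS plate 1. The small nucleolar RNA hosts Gas5 and Snhg1 on the list were not called, at -0.55 and -0.14.

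Genes of the integrated stress response lay lower on target plates. Of 26 listed genes 20 passed. None was called higher, 4 were called lower (Trib3, Slc7a5, Aldh18a1 and Cebpb), and the median was -0.66. Atf3, whose promoter also holds the CARE letters, was placed on the early gene list and not on this one. It was called higher, at 4.12, so the single direction of this list depends on that placing. Between random and FACS plates 0.387% of all genes were called lower, so that a list of this size can hold none. In that comparison 0 of 22 were called, with a median of -0.25. There Trib3 was at -1.41, Slc7a5 at -0.63, Aldh18a1 at -0.63 and Cebpb at -0.66. Trib3, a pseudokinase induced by Atf4 and Ddit3 (chr2:152337422-152344032, minus strand), had 5.93, 5.63, 14.6 and 3.78 CPM on the target plates, 14.8, 18.4, 7.50 and 88.1 CPM on the random plates and 158.4 and 20.2 CPM on the FACS plates. FACS plate 1 and random plate 4 were the high plates, and the difference was -2.93 (-5.06 to -0.45). Pooled, Trib3 came to 7.36 CPM (4.32 to 11.7) over the target plates and 67.8 CPM (54.3 to 83.7) over the FACS plates. Slc7a5, the light chain of a large amino acid transporter, had 45.7, 40.8, 23.6 and 22.7 CPM on the target plates, against 115.4 and 66.6 CPM on the FACS plates, a difference of -1.44 (-2.30 to -0.53) that kept its call under both scalings and with any plate left out. Aldh18a1, which makes the precursor of proline, was at -1.37, and Cebpb, a C/EBP factor, at -1.22. Without FACS plate 1, Trib3 was at -1.47 and under the filter, and Cebpb at -0.78 and not called.

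FACS plate 1 carried much of this pattern. Asns, asparagine synthetase, had 66.04, 59.8, 25.5 and 24.6 CPM on the target plates, 74.4, 98.6, 63.1 and 140.01 CPM on the random plates and 205.9 and 43.1 CPM on the FACS plates, so FACS plate 2 fell among the target plates and the gene was not called. Ddit3, the CHOP factor, had 22.01, 26.7, 34.6 and 37.8 CPM on the target plates, against 151.6 and 4.76 CPM on the FACS plates. Atf4 itself, which is controlled mostly by translation, had 336.96, 369.97, 420.2 and 425.7 CPM on the target plates, against 821.5 and 443.2 CPM on the FACS plates, a difference of -0.64 (-1.28 to -0.06) that stayed under 2-fold. Summed, the list reached 2090 to 2410 CPM on target, 2422 to 3575 CPM on random, and 4645 and 2604 CPM on FACS plates. Over the same 20 genes the median was -0.32 without FACS plate 1 and -1.30 without FACS plate 2.

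Interferon and plasmacytoid dendritic cell genes were lower as well, again with FACS plate 1 in front. Irf7, the factor that amplifies type I interferon, had 3.39, 2.82, 1.82 and 3.78 CPM on the target plates, 20.8, 18.4, 39.99 and 34.6 CPM on the random plates and 79.2 and 8.33 CPM on the FACS plates. All target plates lay below both FACS plates, the random plates lay between those, and the difference was -2.82 (-4.83 to -0.96) for target and 0.03 for random plates. Bst2, the membrane tether also known as tetherin, had 45.7, 39.4, 61.8 and 62.4 CPM on the target plates, against 192.4 and 69.01 CPM on the FACS plates. Without FACS plate 1, Irf7 was at -1.27 and under the filter and Bst2 at -0.42 and not called, and the call of Bst2 was also lost once the structural RNAs were left out of the totals. Of 26 interferon-stimulated genes 10 passed, 3 were called lower, Irf7 and Bst2 among them, and none higher, with a median of -1.15. Between random and FACS plates 0 of 17 were called, with a median of 0.03. As 0.387% of all genes were called lower there, a list this short can hold none. The list summed to 285.9 to 362.4 CPM on target, 515.8 to 1517.7 CPM on random, and 1276.4 and 443.4 CPM on FACS plates, so FACS plate 2 lay below every random plate.

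The list of plasmacytoid dendritic cell genes, which shares Irf7 and Bst2 with the interferon list, had 9 of 14 members measured and 4 called lower, with a median of -1.15, which over the same 9 genes was -0.24 without FACS plate 1. Its defining gene Siglech had 0, 4.22, 10.9 and 3.78 CPM on the target plates, against 31.7 and 0 CPM on the FACS plates and did not pass the filter, while the lineage factor Tcf4 overlapped at 187.95, 188.6, 310.1 and 310.3 CPM on the target plates, against 212.7 and 168.9 CPM on the FACS plates. Jchain, which links immunoglobulin chains and is abundant in that lineage, had 13.5, 0, 0 and 34.1 CPM on the target plates, 0, 10.6, 1.25 and 0 CPM on the random plates and 161.8 and 58.3 CPM on the FACS plates, a difference of -4.37 (-7.35 to -0.76). These counts came from 4 of 70 target and 5 of 52 FACS wells, and 1 well held 53.8% and 49.4% of them. Whether wells of another cell type contribute was not tested.

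**Figure D3:**
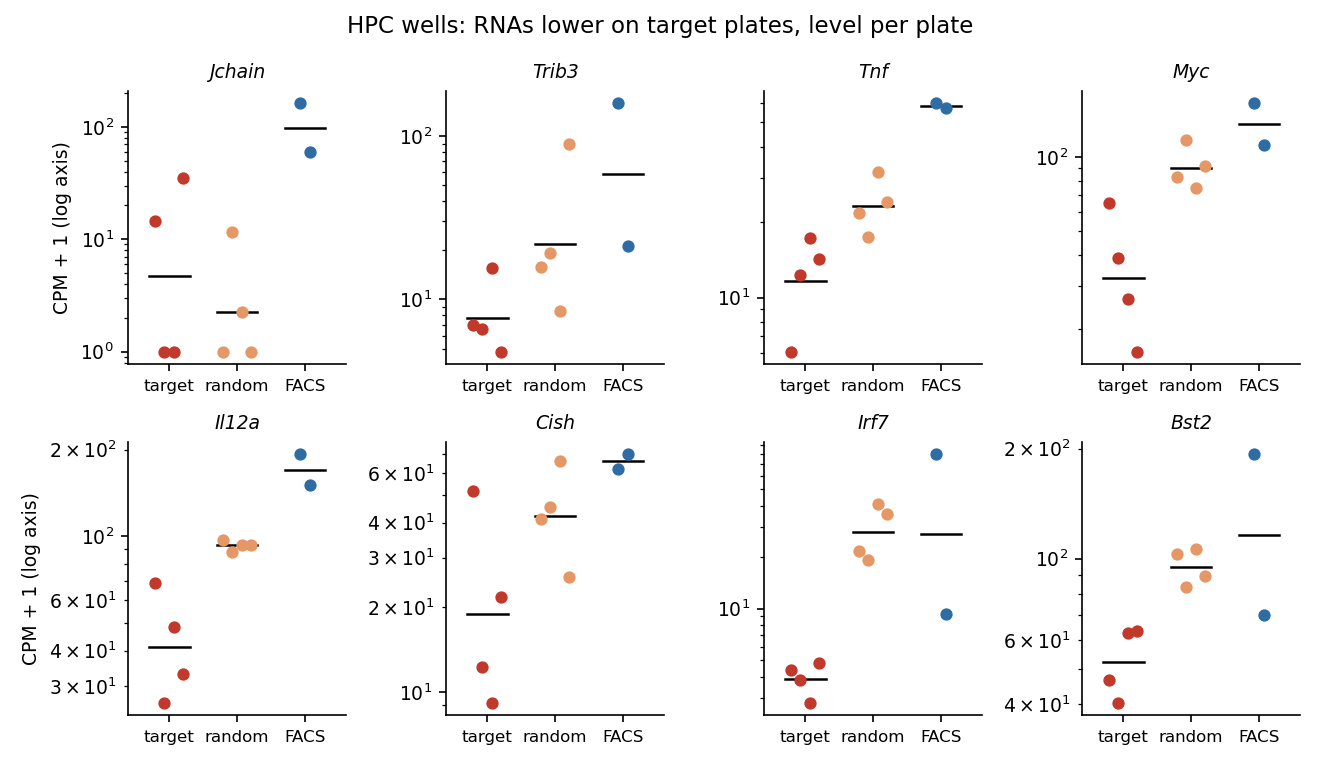
Level of 8 genes called lower on target plates, as CPM + 1 on a log axis whose range differs between panels, in HPC wells of 4 target, 4 random and 2 FACS plates; each point is a plate and each bar the mean of the logs. Target points lie below both FACS points in every panel, and the random plates of Irf7 lie between its FACS plates, at 79.2 and 8.33 CPM.

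Myc and Il12a were among the named lower genes. Myc, the growth-promoting transcription factor, had 64.3, 38.01, 25.5 and 15.1 CPM on the target plates, 82.01, 116.9, 73.7 and 91.4 CPM on the random plates and 165.2 and 110.6 CPM on the FACS plates, a difference of -2.08 (-3.37 to -0.77) that held under both scalings and with each plate left out. Myc was not called with random wells in place of target wells, at -0.59, or with wells taken by label in both groups, at -1.38. Pooled, Myc came to 36.6 CPM (29.3 to 45.1) over the target plates and 129.4 CPM (110.5 to 150.7) over the FACS plates. The other 21 measured members of the Myc and ribosome biogenesis list were not called, and the list's median was 0.10. Il12a, the p35 subunit of interleukin 12, had 67.7, 25.3, 47.3 and 32.2 CPM on the target plates, 96.3, 86.96, 92.5 and 92.2 CPM on the random plates and 192.4 and 149.3 CPM on the FACS plates, a difference of -2.05 (-2.88 to -1.13), with the random plates between the others. After thinning, Il12a was found in 27.1% of target, 62.2% of random and 72.5% of FACS wells, and Myc in 20% of target, 45.9% of random and 66.7% of FACS wells.

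Several named genes were high on FACS plate 1 in particular. Cebpg, a C/EBP partner of Atf4, had 27.1, 29.6, 16.4 and 13.2 CPM on the target plates, against 122.2 and 46.4 CPM on the FACS plates, and Gon7, a subunit of the KEOPS complex for tRNA modification, 22.01, 23.9, 29.1 and 11.4 CPM on the target plates, against 119.9 and 45.8 CPM on the FACS plates, of which 1 FACS well held 33.9%. Zfas1 and Snhg12, hosts of small nucleolar RNAs whose reads may overlap those RNAs, had 110.1, 144.99, 129.2 and 122.99 CPM on the target plates, against 649.5 and 214.2 CPM on the FACS plates, and 37.3, 25.3, 21.8 and 13.2 CPM on the target plates, against 142.6 and 55.3 CPM on the FACS plates. Slco4a1, an organic anion transporter, had 16.9, 8.45, 14.6 and 11.4 CPM on the target plates, against 81.5 and 20.2 CPM on the FACS plates, and Arl14ep, an effector of ARL14, 25.4, 12.7, 12.7 and 15.1 CPM on the target plates, against 85.999 and 28.6 CPM on the FACS plates. Without FACS plate 1, Slco4a1, Arl14ep and Zfas1 were at -0.66, -0.81 and -0.76 and were not called. Nfya, a subunit of the CCAAT-binding factor NF-Y, had 42.3, 28.2, 29.1 and 9.46 CPM on the target plates, against 65.6 and 71.4 CPM on the FACS plates, with no excess on FACS plate 1. Rmnd5b, of the CTLH ubiquitin ligase, had 23.7, 18.3, 23.6 and 24.6 CPM on the target plates, against 90.5 and 47.6 CPM on the FACS plates. Between random and FACS plates, most of these genes were not called. Cebpg was at -0.57 there, Zfas1 at -1.03, Snhg12 at -1.04, Slco4a1 at -0.59, Arl14ep at -0.62, Nfya at -0.85 and Rmnd5b at -0.55. Gon7 kept its call.

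Lrrc17, a secreted leucine-rich repeat protein, had 54.2, 38.01, 49.6 and 20.8 CPM on the target plates, 15.8, 121.3, 39.4 and 7.41 CPM on the random plates and 122.2 and 247.1 CPM on the FACS plates, a difference of -2.15 (-3.51 to -1.16). It was counted, after thinning, in 12 of 70 target and 14 of 51 FACS wells of the HPC line, but also in 95.8% of target and 98.4% of FACS wells of the T line and in 74.2% of target and 69.8% of FACS wells of the leukemia line. With the FACS wells limited to the 13 that also carry the HPC label, its difference was 3.56, in the opposite direction. The part of carry-over between wells in these counts was not tested.

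Plates sorted by FACS differed from each other more than target plates did. Of 4297 genes past the filter, 7.84% were at least 2-fold higher on FACS plate 2 than on FACS plate 1 and 3.23% at least 2-fold lower, with an SD between genes of 0.67. The same SD was 0.38 to 0.47 between pairs of target plates, which held fewer wells but more counts in the median well. Summed over HPC wells, target plates held 528502 to 710417 counts, FACS plate 1 held 441864 and FACS plate 2 held 840506. FACS plate 2 held 28 wells at a median of 31641 counts, and FACS plate 1 held 24 wells at a median of 17052 counts. With FACS plate 1 left out, 5.36% of genes were called between target and FACS plates, with 58.9% of the genes called with both plates among them, or 48% of this list, and with FACS plate 2 left out, 11.3% of genes were called between target and FACS plates, with 77.2% of the genes called with both plates among them, or 29.8% of this list. The part of depth in this difference between the FACS plates was not tested.

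The same plates also held the other lines, and the picked-minus-sorted difference could be read there beside the HPC values. In leukemia wells, 0.803% of 7597 genes were called higher and 0.527% lower, and in T wells 1.32% of 7877 genes higher and 0.559% lower. Rnu11 was called higher in all 3 lines, against FACS totals of 1, 2 and 0 counts in HPC, leukemia and T wells, so that its log2 difference depends on the pseudocount. Pooled over wells, it came to 27.2 CPM in target and 1.16 CPM in FACS wells of the leukemia line, a ratio of 23.5 with a 95% counting interval of 6.36 to 196.2. In T wells it came to 68.6 CPM in target and 0 CPM in FACS wells, at least 43.3-fold higher when the FACS wells together are set to 3 counts. Klf6 and Rgs2 were called in all 3 lines too: Klf6 at 2.48, 1.75 and 1.58, and Rgs2 at 2.48, 2.70 and 1.19 in HPC, leukemia and T wells. Fosb was called in HPC and T wells, at 3.45 and 3.46, and lay below the filter in leukemia wells. Among the lower genes, Snhg12 and Lrrc17 were also called in leukemia wells, at -1.07 and -1.37. Atf3, Jchain, Tnf, Il12a, Cish and Slco4a1 did not pass the filter in either of the other lines, so nothing can be compared.

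Histones were called higher in 46 of 60 measured genes in HPC, 2 of 17 in leukemia and 30 of 42 in T wells, with medians of 1.65, 0.58 and 1.41. Myc, called lower in HPC wells, was at 0.03 in leukemia and -0.11 in T wells and was not called there. Trib3 spread over both directions, at -0.86 and 0.73, with plate pairs from -3.68 to 2.06 in leukemia and from -4.40 to 5.34 in T wells. The integrated stress response list had 0 of 21 called in leukemia and 0 of 25 in T wells. With 0.527% and 0.559% of all genes called lower there, lists of this size can hold none. Differences between the lines were not tested, and the lines share their plates.

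**Figure D4:**
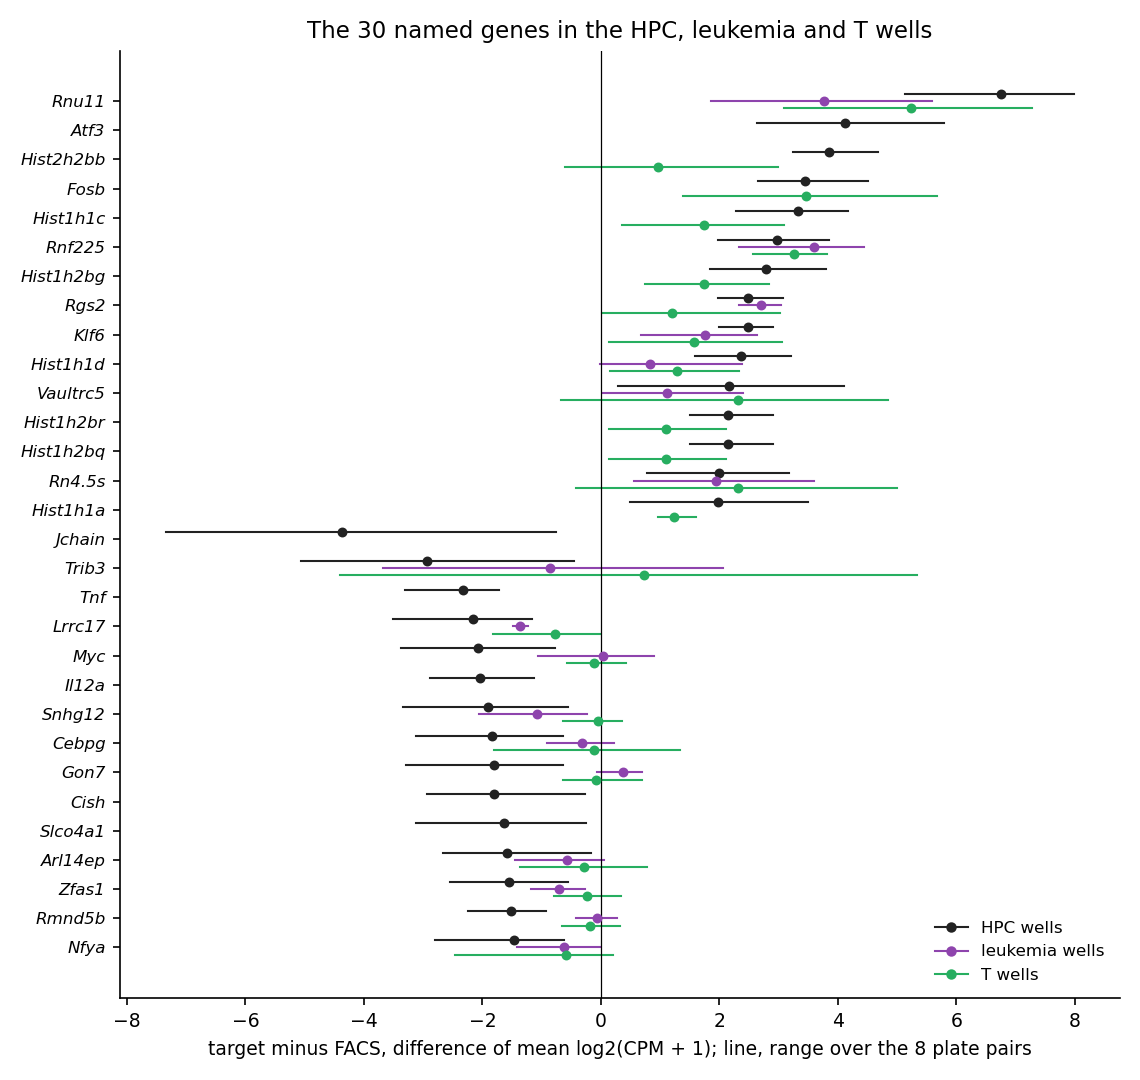
Difference between target and FACS plates in mean log2(CPM + 1) for the 30 named genes, in HPC, leukemia and T wells; points are means over plates, lines run from the lowest to the highest of the 8 plate pairs, and genes below the level filter in a line are left out there. Rnu11, Rnf225, Rgs2 and Klf6 lie to the right of 0 in all plate pairs of all 3 lines, and the range of Trib3 crosses 0 in leukemia and T wells.

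The progenitor and receptor lists gave few calls, where 4.33% of all genes were called and lists of this size can hold none. None of 18 measured stem and progenitor regulators was called, with a median of 0.11 and sums of 2818 to 3042 CPM on target and 2666 and 2658 CPM on FACS plates. Myb, a factor of progenitor growth, had 248.9, 283.6, 205.5 and 187.3 CPM on the target plates, against 162.9 and 204.6 CPM on the FACS plates, and Hoxa9, a homeobox gene of immature cells, 86.9, 69.7, 103.7 and 119.2 CPM on the target plates, against 142.6 and 151.1 CPM on the FACS plates. Among cytokine receptors 10 were measured, with Il6ra called higher at 1.10 and Csf1r called lower at -1.73. Csf1r had counts in 9 of 70 target and 7 of 52 FACS wells, and fell under the filter with either FACS plate left out, at -1.80 without FACS plate 1 and -1.66 without FACS plate 2. With the 13 FACS wells that also carry the HPC label, its difference was 0.70, in the opposite direction. Cd28 was the only measured T cell gene of 13 listed, called higher with 30.5, 39.4, 47.3 and 88.9 CPM on the target plates, 92.1, 58.9, 67.5 and 85.7 CPM on the random plates and 22.6 and 17.8 CPM on the FACS plates, while Cd3d, Cd3g, Cd247, Thy1, Cd4 and Cd8a were at 0 counts in both groups.

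Metabolic and chaperone lists also passed without calls, which at 4.33% of all genes called can happen in lists this short. Those were 20 oxidative phosphorylation genes (median -0.06), 12 glycolysis genes (-0.16), 14 endoplasmic reticulum chaperones (0.07), 8 heat shock genes (0.34), 12 hypoxia-induced genes (-0.20), 12 apoptosis regulators (-0.25), 11 Nrf2 and iron genes (0.21), 13 SRF and actin genes (0.005), 14 G1 regulators (0.07) and 9 antigen presentation genes (-0.59). All 20 ribosomal protein genes lay below 0, from -0.61 to -0.17 with a median of -0.42, and summed to 51129 to 55167 CPM on target, 54654 to 58008 CPM on random, and 76901 and 62358 CPM on FACS plates. With the structural RNAs out of the totals their median was -0.27. Single calls came from Mvk among 22 sterol and fatty acid genes, Slc30a1 among 5 metallothionein and zinc genes, both higher, and Aen among 12 p53 targets, lower. All 3 calls were lost under at least 1 alternative.

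**Figure D5:**
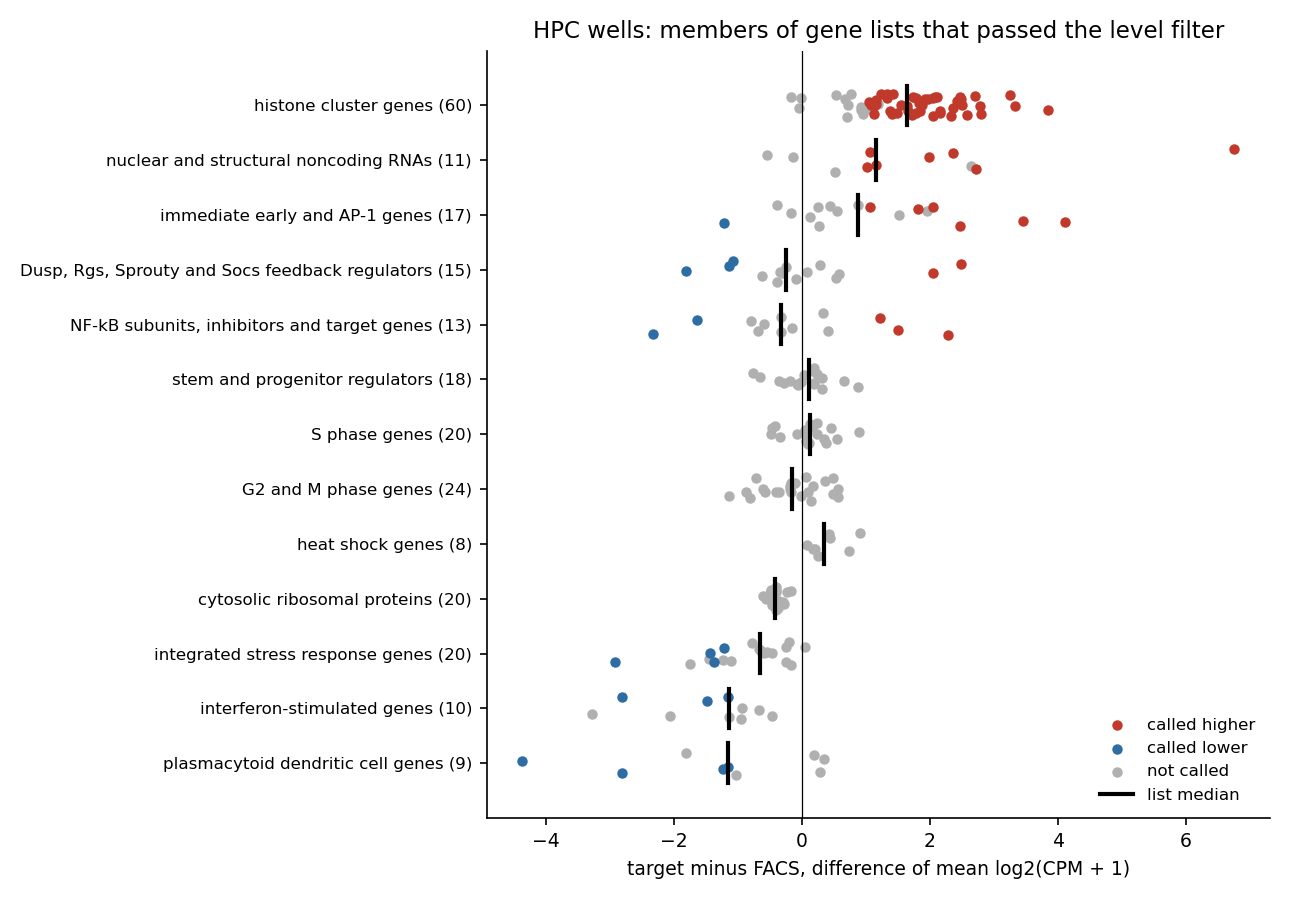
Difference between target and FACS plates in mean log2(CPM + 1) for the members of 13 gene lists that passed the level filter, with their number in parentheses; points are genes, coloured by call, and black bars are list medians. Histone genes and nuclear RNAs lie mostly to the right of 0 (medians 1.65 and 1.16), the cell cycle and progenitor lists around it, and the stress response, interferon and plasmacytoid lists to the left (-0.66, -1.15 and -1.15).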

How the data were processed

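Single cells of 3 mouse lines, mixed and then picked by imaging or sorted by FACS, were sequenced per well with molecular barcodes. The authors deposited a table of estimated counts per gene and well; per the labels' protocols, reverse transcription used a barcoded primer with 14 T bases, and bcl2fastq, STAR and mm10 are named in the submitters' processing notes without versions. Of the positive values in the wells used, 5.35% are not whole (tolerance 1e-06), so that the expected counts were used as deposited, without rounding, and in no count test. Whether counting used strand is not given in the sources used here. The table lists 24781 genes; 828 columns were used and 1008 were not. The rule kept 122 of 498 target and FACS wells, and 111 of 330 random wells.

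HPC wells were summed per plate and scaled to CPM; differences used log2(CPM + 1). A gene needed 10 CPM and 30 counts in 1 group, and a call needed a 2-fold mean difference in 1 direction over all plate pairs, which 162 genes met higher and 140 lower between target and FACS plates. With 1 sample per group no test was made; plates are not independent cultures. Named genes were the 15 largest calls in each direction with at least 50 CPM and no predicted, Rik or clone symbol, plus members of the gene lists. A gene that met these rules is not reported here. Wells were thinned to 10000 counts (seed 1) for shares of wells, with exact Clopper-Pearson 95% intervals; these and the Poisson intervals cover counting error only. The call was checked on simulated data. The members and lists were chosen with earlier results of these data known. Alternatives changed the scaling, pseudocount, filter, well choice and plates left out. Doublets were not called. Python 3.11.15, numpy 2.4.6, pandas 2.3.3 and scipy 1.17.1 were used.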

Additional observations from a re-analysis of the deposited data

Results flagged for a closer look

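For each named gene, the 4 target plates and the 4 random plates were examined, 60 groups in all, and in 2 of them a plate stood farther from its nearest neighbour, relative to the group's range, than Dixon's 95% critical value allows. Chance flags about 1 group in 20. Snhg12, a host of small nucleolar RNAs, stood at 98.83 CPM on random plate 4, above the other random plates. Rmnd5b, a gene of the CTLH ubiquitin ligase, stood at 18.3 CPM on target plate 2, below the other target plates.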

How the results depend on the processing

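No paired analysis was possible because replicate numbers were given in accession order, the groups share no plate and no test was made. Between target and FACS plates 4.33% of the genes tested were called. That share was 2.82% with a pseudocount of 5 CPM, 2.93% with a filter of 50 CPM, 6.38% without the level filter, 4.68% of fewer genes with each well thinned, 16.4% with wells taken by label in both groups, and 8.59% with the 13 FACS wells that also carry the HPC label, an alternative chosen after seeing the data. After thinning, 24.5% of the genes called in full data were called. Leaving out 1 plate gave 4.23 to 11.3% for target against FACS, 2.95 to 9.65% for random against FACS, 1.22 to 4.52% in leukemia and 1.71 to 6.19% in T wells, in each case highest without FACS plate 2. Without FACS plate 1 the shares were 5.36%, 5.67%, 2.76% and 4.13% in the same order. Without thinning, the share of wells with at least 2 early genes was 95.7% in target, 99.1% in random and 44.2% in FACS wells. Of the wells taken by label, 70 of 73 target wells but 13 of 45 FACS wells met the marker rule. The FACS group of that setting was therefore mostly wells without HPC markers. By label in both groups the difference turned to 0.62 for Jchain, 0.42 for Il12a and 0.091 for Slco4a1. Il12a had a count in 0 of 64 T and 0 of 63 leukemia wells of the FACS plates. With the 13 FACS wells the difference turned to 3.56 for Lrrc17, 0.11 for Gon7 and 0.70 for Csf1r. The cause of these turns was not tested. With random wells in place of target wells, 18 of 30 named genes kept their call and 12 lost it, all in the same direction as before. Those 12 were Hist1h1a, named as higher, and the lower genes Trib3, Myc, Il12a, Snhg12, Cebpg, Cish, Slco4a1, Arl14ep, Zfas1, Rmnd5b and Nfya. Of 30 named genes 12 were called in all 21 alternatives: Rnu11, Atf3, Hist2h2bb, Fosb, Rnf225, Hist1h2bg, Rgs2, Klf6, Hist1h1d, Hist1h2br, Hist1h2bq and Rn4.5s. Some of these alternatives could not change a call of a named gene. The other limits on the HPC marker share kept the same wells, as did asking target wells to carry the HPC label too. The filter of 50 CPM and the setting without the level filter dropped no named gene, as these were chosen at 50 CPM or more. Low depth limits low genes most on FACS plate 1.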
